A study of Mus musculus with 25 samples.

Results

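Solute carriers are membrane proteins that move amino acids, sugars, metals, ions, nucleosides and metabolites across the plasma membrane and the membranes of mitochondria, the Golgi apparatus and vesicles. In the mouse thymus, 253 of the 353 solute carrier genes with a probe on the array were detected in the samples described here, and they made up 253 of the 15533 genes tested. They were chosen by symbol alone: every gene whose name on the array platform began with Slc and a digit was taken, leaving out Slc2a1, Slc2a3 and Slc5a9, when at least 1 of its probes had a detection p-value below 0.05 on at least 3 of the 25 arrays. The symbol does not prove that the product is a carrier. Of the members, 4 were named after a carrier they bind or lie beside (Slc9a3r1, Slc9a3r2, Slc4a1ap and Slc7a6os), and Slc3a2 encodes the heavy chain of heteromeric amino acid transporters rather than a carrier itself.

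Carriers are grouped into families by sequence, and the family number broadly follows the substrate. Dividing lymphocyte precursors take up amino acids, iron, zinc and folate through them, exchange ADP and ATP across the inner mitochondrial membrane through the adenine nucleotide translocases Slc25a4 and Slc25a5, and export lactate through the monocarboxylate carriers Slc16a1 and Slc16a3. Many members of the large families of organic ion, bile acid and renal phosphate carriers are instead known for kidney, liver or gut.

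The study compared thymocytes without CD4, CD8 and CD3 but with CD25, a chain of the interleukin 2 receptor; such cells comprise the TN2 stage, which has CD44, and the TN3 stage, which does not. The young group (n = 6) held host TN2/3 cells of C57BL/6 background, marked by CD45.2. The old group with competition (n = 6) held donor-origin TN2/3 cells of B6/Ly5.1 background, marked by CD45.1, from hosts labelled competitive and wild type. Old cells without competition (n = 9) were of F1(WB x B6/Ly5.1) background and of donor origin in hosts labelled non-competitive, Rag2-/-γc-/-KitW/Wv, which lack Rag2 and the cytokine receptor chain γc and carry mutated Kit; for array 1 of this group the labels omit the cell type. The stage controls came from wild-type B6/Ly5.1 animals, TN2 cells with CD44 (n = 2) and TN3 cells without it (n = 2). The labels give no age and no length of stay in the host. They do not state that the samples within a group are separate animals, and p-values therefore reflect the spread among these samples only. Nor do they pair young arrays with arrays of old cells with competition. If such arrays came from the same animals, the fit, which treated them as independent, ignored that pairing. Strain and origin (host or donor) differ together with the labelled condition in every comparison of old with young cells, and their parts cannot be told apart. Between the 2 old groups, the labelled strain and host differ together with the condition, and their parts cannot be told apart either. Both old groups were of donor origin and the stage controls came from wild-type animals. Origin therefore cannot be told apart from the condition in comparisons with TN3, nor can strain for old cells without competition.

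Chips 2 and 4 each carried 3 young arrays and 3 arrays of old cells with competition, and no chip held either group together with any other. Chips 1 and 5 held the old cells without competition, and chips 3 and 5 the TN2 and TN3 arrays. The share of probes detected per array was 46.7% to 50.1% for young cells, and 46.8% to 49.4% and 41.1% to 45.7% for the old groups with and without competition. It was 43.9% to 44.6% for TN2 and 43.1% to 44.2% for TN3. In the same order of groups, 161 to 174, 161 to 171, 144 to 161, 147 to 153 and 144 to 154 solute carrier genes were detected per array. Array 6 of old cells with competition stood apart. On it, 25 solute carrier genes lay over 1 log2 unit from their group mean, against at most 1 on the other arrays of that group, at most 4 on young arrays and at most 7 on arrays of old cells without competition. For comparisons of its group and the F-test, counts of called members are therefore given both ways. Calls of single members between its group and another are too, where they change when it is left out.

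**Figure D1:**
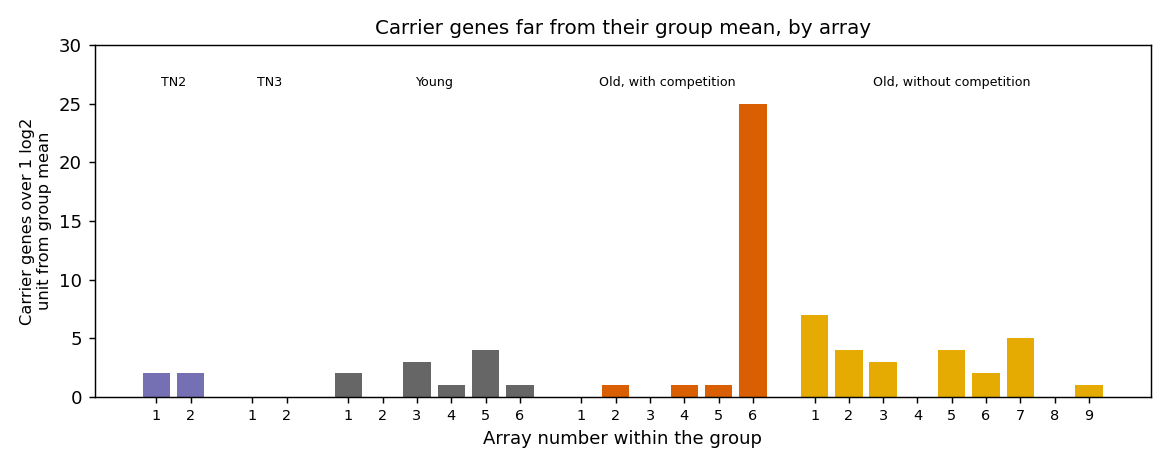
Bars give, for each array (horizontal axis, numbered within its group), the number of solute carrier genes whose normalized log2 intensity differed from its group's mean by more than 1 log2 unit. Array 6 of old cells with competition reached 25, while no other array exceeded 7.

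The share of genes detected varied between substrate classes, a difference that was not tested. Over all probes of the array, 30174 of 46237 passed the same filter, a count of probes rather than genes. Of the mitochondrial carriers (family 25), 40 of 45 genes were detected (88.9%), 20 of them on all 25 arrays. Zinc, iron and other metal transporters reached 28 of 32 (87.5%, 10 on all arrays) and the nucleotide sugar family of the Golgi apparatus 21 of 25 (84%, 11 on all arrays). For amino acid transporters the count was 44 of 61 (72.1%), for ion and pH transporters 38 of 52 (73.1%), for sugar transporters 18 of 30 (60%) and for monocarboxylate and dicarboxylate transporters 12 of 18 (66.7%). The lowest share was 17 of 39 (43.6%) in the class of organic ions, bile acids and peptides. The 100 genes that were not detected on 3 arrays included the kidney carriers Slc22a6, Slc22a8 and Slc34a1, the dopamine and noradrenaline transporters Slc6a3 and Slc6a2, the glucose transporters Slc2a2 of liver and Slc2a4 of muscle and fat, the red cell anion exchanger Slc4a1 and the iron exporter Slc40a1. By the probe that stood for the gene, 72 of the 253 members were detected on all 25 arrays and 103 on fewer than 13, so that many of the values below lie near the floor of the array, where fold changes are understated.

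Promoters of 5 carriers are shown because the results below turn on these genes: Slc8a1 and Slc25a12 were lower in both old groups than in young cells, Slc16a10 was higher in old cells without competition, and Slc25a4 and Slc25a5 were higher in old cells with competition than in TN3 controls. Each sequence is the 250 bases before the annotated start, from RefSeq for GRCm38.p6, on the strand of the gene, which was minus for all but Slc25a5. The coordinates are chr17:81738388-81738637 for Slc8a1, chr2:71367756-71368005 for Slc25a12, chr10:40142255-40142504 for Slc16a10, chr8:46211063-46211312 for Slc25a4 and chrX:36795347-36795596 for Slc25a5. Capitals mark the E-box (CANNTG), the letters that E proteins of early thymocytes recognise.
Slc8a1: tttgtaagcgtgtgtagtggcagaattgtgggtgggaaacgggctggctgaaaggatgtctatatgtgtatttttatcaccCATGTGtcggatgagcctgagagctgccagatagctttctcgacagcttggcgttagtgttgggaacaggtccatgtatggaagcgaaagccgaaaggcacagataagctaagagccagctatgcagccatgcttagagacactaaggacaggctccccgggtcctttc
Slc25a12: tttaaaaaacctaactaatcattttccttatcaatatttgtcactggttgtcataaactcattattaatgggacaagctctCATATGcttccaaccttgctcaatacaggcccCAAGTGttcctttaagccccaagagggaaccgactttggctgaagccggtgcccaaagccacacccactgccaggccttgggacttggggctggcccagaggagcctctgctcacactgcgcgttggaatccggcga
Slc16a10: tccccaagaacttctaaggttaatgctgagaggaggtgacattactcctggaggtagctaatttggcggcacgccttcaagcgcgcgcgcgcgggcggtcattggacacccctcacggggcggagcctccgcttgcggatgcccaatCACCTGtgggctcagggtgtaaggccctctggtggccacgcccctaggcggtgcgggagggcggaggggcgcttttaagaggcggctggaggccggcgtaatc
Slc25a4: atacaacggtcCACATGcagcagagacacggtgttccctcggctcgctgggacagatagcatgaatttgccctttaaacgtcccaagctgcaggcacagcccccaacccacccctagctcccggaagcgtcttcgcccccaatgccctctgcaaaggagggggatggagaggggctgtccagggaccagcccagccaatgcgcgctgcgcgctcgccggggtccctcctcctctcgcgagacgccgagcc
Slc25a5: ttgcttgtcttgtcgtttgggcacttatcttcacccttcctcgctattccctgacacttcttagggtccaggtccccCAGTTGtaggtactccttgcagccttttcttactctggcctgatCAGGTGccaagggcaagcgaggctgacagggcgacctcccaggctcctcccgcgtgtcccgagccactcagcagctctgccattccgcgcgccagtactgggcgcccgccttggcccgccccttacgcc

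The E-box occurred in 1 copy in Slc8a1, Slc16a10 and Slc25a4 and in 2 copies in Slc25a12 and Slc25a5. Over the promoters of the 202 members that RefSeq's promoter table held, 66.3% had at least 1 E-box, and over all 32851 promoters it lists the share was 66.2%. The GATA motif AGATAA (8.61% of member promoters, 9.99% of all) occurred in Slc8a1 and Slc25a5, and the Runx motif TGTGGT (11.6%, 14%) in none of the 5; all motifs were searched on both strands, and matches of different motifs may share bases. The GC box GGGCGG stood in 55.1% of member promoters against 32.7% of all, 3 copies of it in Slc16a10 and 1 in Slc25a5. The median number of CpG dinucleotides was 11 in member promoters and 6 over all. Members had passed the detection filter and the full set of promoters had not. The GC box and CpG differences therefore cannot be taken as a trait of solute carriers. Of the 5 promoters shown, Slc8a1 had 8 and Slc25a12 6, with 50.4% and 49.6% G and C. The other 3 had 14 to 21, with 61.6% to 64.8%. Promoters of Slc48a1, Slc14a1, Slc9a2 and Slc66a2, also lower in both old groups, are not shown. The CpG counts therefore cannot be set against the direction of change. All motif counts are matches of letters only.

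Across the 5 groups, 18 of the 253 solute carrier genes differed by the moderated F-test of limma (7.11%), beside 12.3% of all genes. At an unadjusted p below 0.05 there were 46 members. No share of all genes is given for counts at an unadjusted p, here or below. They therefore do not tell whether carriers differed more often than other genes. The 18 comprised 4 mitochondrial carriers, 3 ion and pH transporters, 3 metal transporters, 2 members of the monocarboxylate transporter family (Slc16a5 and the amino acid carrier Slc16a10), the urea transporter Slc14a1 and the PQ-loop protein Slc66a2, and 1 gene each of the amino acid, lipid, nucleotide sugar and haem classes. None of the 18 sugar, 17 organic ion, 11 phosphate and vesicular and 6 nucleoside transporters was among them. The F-test called 24 members, beside 18.6% of all genes, once array 6 of the old cells with competition was dropped. Leaving out 1 array changed the count to between 14 (TN2 array 1 omitted) and 25 (TN3 array 1 omitted). Scaling to a common median in place of quantile normalization raised it to 51, beside 32% of all genes.

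Old cells with competition were compared with young cells on the 2 chips they shared. Carriers of sodium and calcium (Slc8a1), aspartate and glutamate (Slc25a12), haem (Slc48a1), urea (Slc14a1) and sodium and protons (Slc9a2) and the PQ-loop protein Slc66a2 were lower in the old cells, by 0.75 to 1.14 log2 units. No carrier passed the test as higher. These 6 members (2.37%) compare with 2.92% of all genes, of which 2.5% were lower and 0.418% higher, and 29 members had an unadjusted p below 0.05. With array weights 15 members passed, 6 higher and 9 lower, beside 6.93% of all genes. With 3 arrays a group, 0 passed on chip 2 alone (all genes 0.277%) and 3 on chip 4 alone (all genes 1.51%), none of them among the 6. The median difference was 0.01 log2 units over the members and 0.00 over all genes. In 5 members (1.98%) the 2 groups did not overlap, beside 2.65% of all genes.

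**Figure D2:**
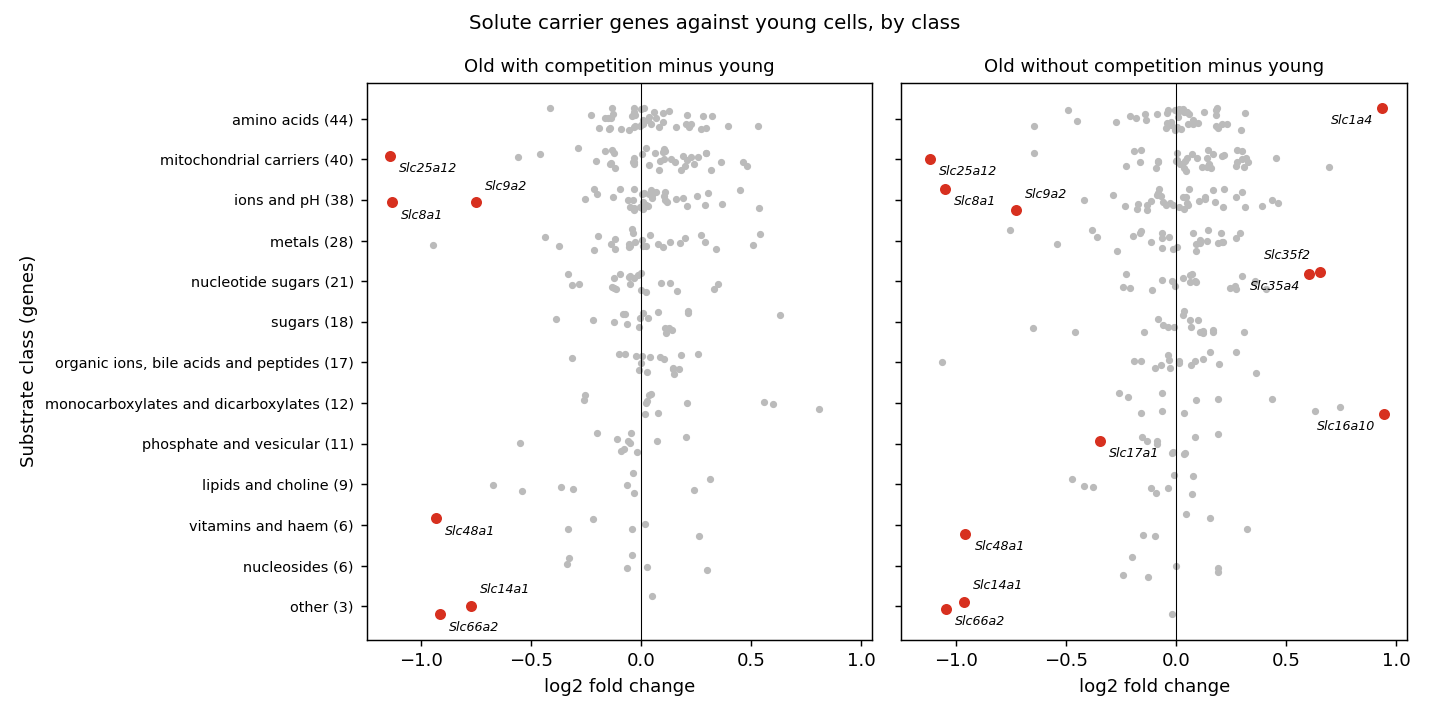
Each point is 1 solute carrier gene, placed by its log2 fold change against young cells (horizontal axis) in its substrate class (vertical axis, with the number of genes), in old cells with competition (left) and without (right). Red points passed an adjusted p of 0.05 (6 and 11 genes); the other genes are grey.

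Slc8a1, the plasma membrane exchanger of sodium for calcium, lay between 5.43 and 6.67 on young arrays (median 5.89, log2 of normalized intensity here and below), between 4.71 and 4.95 in old cells with competition (median 4.83) and between 4.19 and 5.34 in old cells without competition (median 5.03). The TN2 arrays read 6.97 and 6.37 and the TN3 arrays 5.43 and 5.84. Neither old group overlapped the young one. The difference was -1.13 ± 0.20 (log2 ± SE, adjusted p = 0.00146) with competition and -1.05 ± 0.19 (adjusted p = 0.00066) without. Within chips 2 and 4 it was -0.97 and -1.30, and both calls held when any single array was left out.

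Slc25a12, the mitochondrial carrier that exchanges aspartate for glutamate and takes part in the malate-aspartate shuttle, ranged from 7.37 to 8.42 on young arrays (median 7.99), from 5.54 to 7.50 in old cells with competition (median 7.02) and from 6.37 to 7.39 in old cells without competition (median 6.88). It stood at 7.36 and 8.53 in TN2 and at 5.74 and 7.15 in TN3. The old groups lay low with a slight overlap with the lowest young array. It fell by 1.14 ± 0.29 (adjusted p = 0.0314) with competition, and within chips 2 and 4 the differences were -1.36 and -0.92. This call was lost without young array 2, 5 or 6, or without array 2 or 6 of the old cells, with adjusted p of 0.0512 to 0.0864, and also with scaling to a common median (adjusted p = 0.0717) and with no detection filter (adjusted p = 0.0569). Without competition the difference was -1.11 ± 0.27 (adjusted p = 0.00979), past the threshold whichever array was left out.

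Slc48a1 encodes a transporter of haem out of endosomes and lysosomes. Its values ran from 6.44 to 7.34 on young arrays (median 6.94), from 5.19 to 6.35 in old cells with competition (median 6.15) and from 5.54 to 6.62 in old cells without competition (median 5.81), with 8.44 and 7.32 in TN2 and 6.27 and 6.47 in TN3. All 6 arrays of old cells with competition lay below all young arrays. The fall was -0.93 ± 0.24 (adjusted p = 0.0303), close to equal within chips 2 (-0.94) and 4 (-0.93). It missed the threshold without young array 2, 4 or 5 or without array 1, 5 or 6 of the old cells (adjusted p 0.0512 to 0.0818), with scaling to a common median (adjusted p = 0.0575) and with no detection filter (adjusted p = 0.0528). In old cells without competition Slc48a1 fell by 0.96 ± 0.22 (adjusted p = 0.00663).

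Slc14a1, a urea transporter, ranged from 4.88 to 5.90 on young arrays (median 5.52), from 4.48 to 4.91 in old cells with competition (median 4.61) and from 4.14 to 5.20 in old cells without competition (median 4.47). TN2 arrays were at 5.47 and 5.73, and TN3 arrays at 6.31 and 5.60. Only the lowest young array reached into the range of the old cells with competition. Slc14a1 fell by 0.77 ± 0.17 (adjusted p = 0.011) with competition and by 0.96 ± 0.16 (adjusted p = 0.000286) without, and neither call depended on a single array. All 3 of its probes had lower means in both old groups than in young cells.

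Slc9a2, an exchanger of sodium for protons, was detected on all 6 young arrays, 1 of 6 arrays of old cells with competition, 2 of 9 without, both TN2 arrays and neither TN3 array. Young arrays ranged from 4.49 to 5.49 (median 5.00), old cells with competition from 4.10 to 4.62 (median 4.13) and old cells without competition from 4.09 to 4.66 (median 4.11). The differences were -0.75 ± 0.17 (adjusted p = 0.0111) and -0.73 ± 0.15 (adjusted p = 0.00345), and its dimmer second probe gave -0.15 and -0.16. With the mean of both probes the first call was lost (-0.45, adjusted p = 0.0511). Slc66a2 ranged from 5.11 to 7.07 in young cells (median 5.53, the highest on array 3), from 4.54 to 4.93 with competition (median 4.77) and from 4.07 to 4.85 without (median 4.74). Neither old group overlapped the young one. Its differences were -0.91 ± 0.23 (adjusted p = 0.0253) and -1.04 ± 0.21 (adjusted p = 0.00206). The first of these missed the threshold without young array 5 (adjusted p = 0.0505) or array 2 of the old cells (adjusted p = 0.0524), and without background correction it was -0.34 (adjusted p = 0.0935) and with the deposited values -0.35 (adjusted p = 0.0945).

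**Figure D3:**
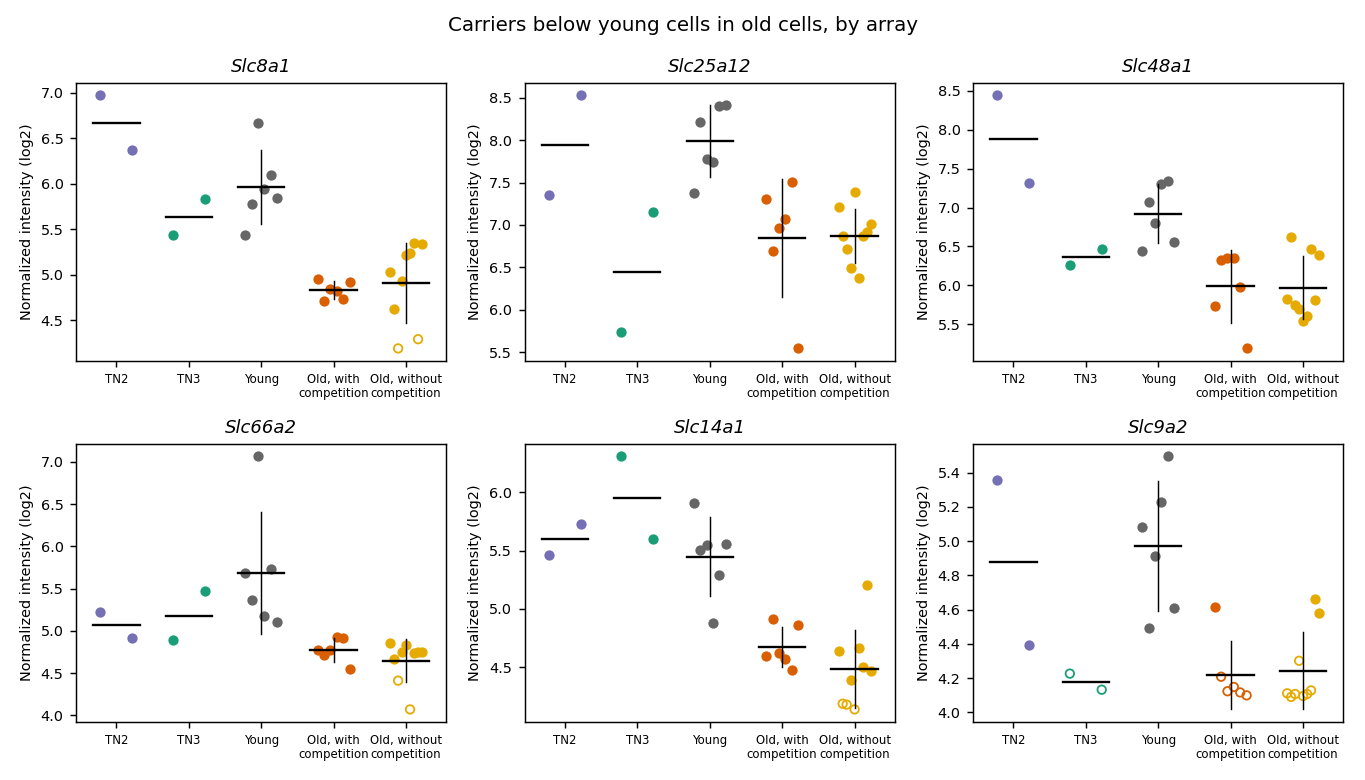
Normalized log2 intensity (vertical axis) of the 6 carriers that were lower than in young cells in both old groups, with 1 point per array, filled where detected and open where not. Horizontal bars are group means and vertical lines SD for groups of more than 2 arrays. Slc8a1 and Slc66a2 do not overlap between young cells and either old group.

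The comparisons of the 2 old groups with young cells share the young arrays, so that the presence of the same 6 genes in both is not independent. Some markers of other cells moved in the same direction, and others did not. The summed level of 7 measured myeloid and dendritic markers (log2) was 8.31 to 9.25 in young cells, 7.11 to 7.28 with competition, 7.07 to 7.69 without, 9.17 to 9.45 in TN2 and 7.57 to 7.79 in TN3, and 5 of the 7 were lower in each old group (Lyz1, Lyz2, Mpo, Tyrobp and Fcer1g). The 4 measured mast cell and basophil markers stood at 8.54 to 9.02, 6.39 to 6.66, 6.18 to 7.49, 9.45 to 9.61 and 6.67 to 7.26 in these groups, with 1 lower (Cpa3). The 7 erythroid markers stood at 8.21 to 10 on young arrays, 7.01 to 7.88 and 7.08 to 8.59 in the old groups, 10.2 to 10.6 in TN2 and 7.33 to 7.34 in TN3, with 2 lower (Hbb-b1 and Hbb-b2). The 3 measured NK and innate lymphoid markers stood, summed, at 7.85 to 8.48 in young cells, 5.99 to 7.35 with competition and 6.11 to 7.99 without, with 1 lower in both (Nkg7). Each sum follows its brightest genes. Median differences from young cells, with and without competition, were -1.57 and -1.13 (myeloid and dendritic) and -0.50 and -0.28 (mast cell and basophil). They were -0.08 and 0.13 (erythroid) and -0.23 and -0.41 (NK and innate lymphoid). Positive differences that did not pass included those of Cma1 (0.08 and 0.23) and Alas2 (0.06 and 0.22). None of 2 B cell, 4 thymic epithelial and 3 double positive thymocyte markers passed. Detection of single markers on the 6 young arrays was uneven. Hbb-b1, Hbb-b2, Klf1, Cpa3, Hdc, Lyz1, Lyz2, Mpo, Tyrobp, Fcer1g, Nkg7, Klrb1c, Cd79b and Ebf1 were detected on all 6, Klrd1 on 5, Cma1 and Elane on 4, Fcer1a on 3, Hba-a1, Gata1 and Csf1r on 2, Epor on 1 and Alas2 on 0. Of 6 stage genes, 3 were lower in each old group (Kit, Cd44 and Il2ra), and Ptcra, the pre-T cell receptor alpha chain of the TN3 stage, was higher without competition (1.07 ± 0.23, adjusted p = 0.0037; 0.32 ± 0.25 with competition, adjusted p = 0.749). Il2ra, which encodes CD25, was detected on 0 TN3 arrays (mean 4.27, TN2 mean 4.52), although TN3 cells have CD25. A lower Il2ra signal here thus does not show less CD25 on the cells. Kit and Cd44, which are high at the TN2 stage, were lower by 2.28 ± 0.26 and 1.20 ± 0.15 with competition. Without competition they were lower by 2.12 ± 0.24 and 1.13 ± 0.14. The part of these cells and of the stage in the carrier results was not tested, and in bulk samples fewer cells of a type and less RNA per cell cannot be told apart.

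Array 6 bore on this comparison. Without it, 8 members passed (4.14% of all genes), 6 lower and 2 higher, and 4 of the 6 above were among them. Slc25a12 (-0.88, adjusted p = 0.0512) and Slc48a1 (-0.77, adjusted p = 0.0574) no longer passed. Added were the aromatic amino acid transporter Slc16a10 (0.87 ± 0.19, adjusted p = 0.00752), the adenine nucleotide translocase Slc25a4 (0.57 ± 0.15, adjusted p = 0.0338), the magnesium transporter family member Slc41a3 (-1.03 ± 0.28, adjusted p = 0.0328) and the choline transporter-like Slc44a2 (-0.47 ± 0.11, adjusted p = 0.0171).

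Old cells without competition were next compared with young cells, with no chip in common. In addition to the 6 carriers above, Slc17a1, a sodium-dependent phosphate and urate carrier known from kidney, was lower. Higher were 4 carriers, Slc16a10 and Slc1a4 for amino acids and Slc35a4 and Slc35f2 of the nucleotide sugar family. These 11 members (4.35%) compare with 8.93% of all genes. Of the members 4 were higher and 7 lower (3.17% and 5.76% of all genes), and 41 had an unadjusted p below 0.05. The groups did not overlap for 3 members (1.19%, all genes 3.2%), Slc8a1, Slc66a2 and Slc44a2. With arrays scaled to a common median in place of quantile normalization, 42 members passed, 1 higher and 41 lower, beside 25.4% of all genes; that scaling put the median difference of all genes at -0.17 and of the members at -0.08. Chip and group cannot be told apart here.

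Slc16a10 ranged from 5.88 to 7.07 on young arrays (median 6.87), from 5.98 to 7.68 in old cells with competition (median 7.57) and from 6.93 to 8.07 in old cells without competition (median 7.74). The TN2 arrays stood at 6.67 and 7.05 and the TN3 arrays at 7.32 and 7.58. Of the old cells without competition, only the lowest array reached the young range. The rise was 0.94 ± 0.23 (adjusted p = 0.00947) and held whichever array was left out, but it was 0.39 (adjusted p = 0.325) with scaling to a common median. With competition the difference was 0.60 ± 0.25 (adjusted p = 0.295), array 6 being the lowest of its group at 5.98.

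Slc1a4 encodes a transporter of alanine, serine and cysteine. It was detected on 4 of 6 young arrays, 3 of 6 arrays with competition, 7 of 9 without, neither TN2 array and 1 TN3 array. Young arrays covered 4.08 to 4.53 (median 4.38), old cells with competition 4.11 to 5.26 (median 4.62) and old cells without competition 4.14 to 6.08 (median 5.49). The arrays of old cells without competition were spread, with 7 above all young arrays and 2 within their range. Slc1a4 rose by 0.94 ± 0.27 (adjusted p = 0.03), a call that was lost without young array 1, 2 or 6 or array 3, 4, 5 or 6 of the old cells (adjusted p 0.0533 to 0.0658).

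Slc35a4 ranged from 7.84 to 8.61 on young arrays (median 8.33), 7.83 to 8.74 with competition (median 8.52) and 8.41 to 9.20 without (median 8.88). The TN2 arrays, at 8.69 and 8.90, lay with the last group, and the TN3 arrays, at 8.36 and 8.19, with the young cells. It rose by 0.60 ± 0.14 (adjusted p = 0.00867) with any array left out, whereas with scaling to a common median the difference was 0.08 (adjusted p = 0.835). Slc35f2, near the floor, covered 4.09 to 4.70 in young cells (median 4.29), 4.21 to 5.13 with competition (median 4.82) and 4.17 to 5.52 without (median 5.05). Its rise of 0.65 ± 0.19 (adjusted p = 0.0345) was lost without young array 3, 4, 5 or 6 or array 3, 4, 5, 6 or 8 of the old cells (adjusted p 0.0537 to 0.0844), with no detection filter (adjusted p = 0.0503) and with scaling to a common median (0.47, adjusted p = 0.077). Slc17a1 was detected on 4 of 6 young arrays and on 0 of 9 arrays of old cells without competition, which bounds the difference at at least 1.2-fold lower (adjusted p = 0.042; measured means 4.56 and 4.21). The bound sets the young mean against the lowest detected signal of the other arrays, and the call was lost on leaving out young array 2, 3, 5 or 6 or any array of the old cells other than 1 and 6 (adjusted p 0.0532 to 0.111).

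**Figure D4:**
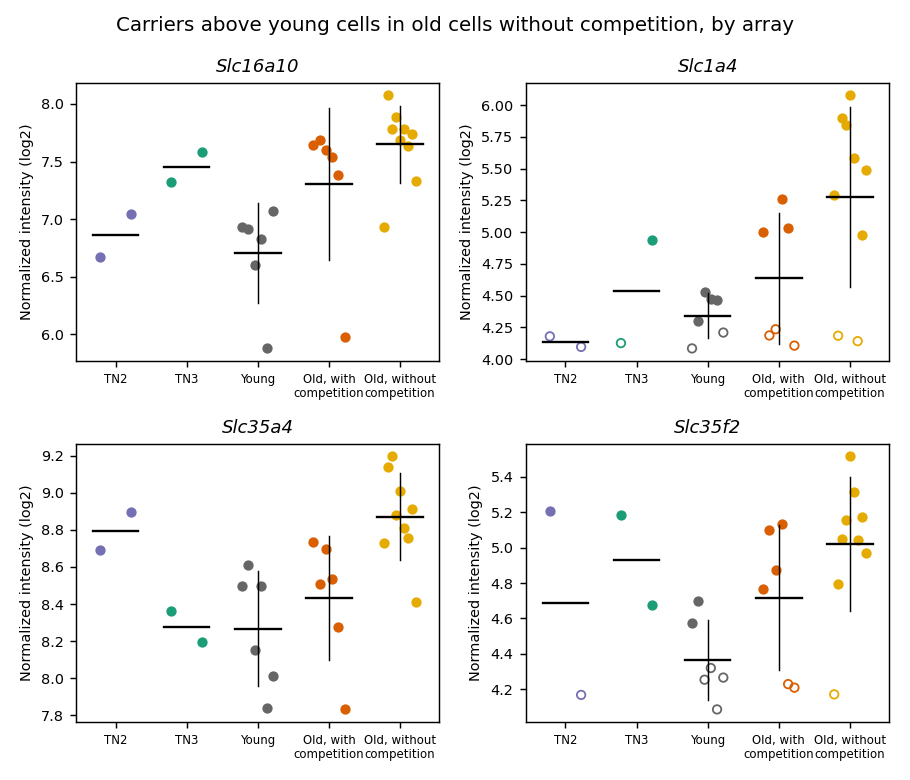
Normalized log2 intensity (vertical axis) of the 4 carriers that were higher in old cells without competition than in young cells, with 1 point per array (filled where detected, open where not), group means as bars and SD as lines for groups of more than 2 arrays. The lowest Slc16a10 value of old cells with competition, 5.98, is array 6.

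Other carriers differed by similar amounts without passing. Slc41a3, of the magnesium transporter family, ranged from 7.70 to 8.16 in young cells, from 6.66 to 7.38 with competition and from 5.77 to 8.14 without, with differences of -0.94 ± 0.26 (adjusted p = 0.054) and -0.75 ± 0.24 (adjusted p = 0.0548). All arrays with competition lay below all young ones, while those without competition overlapped them. Slc16a5, of the monocarboxylate transporter family, ran from 5.58 to 6.31 in young cells, from 6.35 to 8.43 with competition and from 6.20 to 7.51 without, at 0.81 ± 0.26 (adjusted p = 0.127) and 0.74 ± 0.24 (adjusted p = 0.0576). The fatty acid transport protein Slc27a1 showed -0.67 ± 0.22 (adjusted p = 0.129) and -0.47 ± 0.20 (adjusted p = 0.17). These 3 passed the F-test across all groups (adjusted p = 0.018, 0.0083 and 0.0157). The peptide transporter Slc15a2 was widely spread, 5.18 to 7.38 in young cells and 4.32 to 7.01 in old cells without competition, and its difference of -1.06 ± 0.41 had an adjusted p of 0.116.

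Between the 2 old groups, no solute carrier gene passed limma's test (0 of 253, against 1.24% of all genes, 0.412% higher and 0.83% lower), and in none did the groups fail to overlap (0.708% of all genes). At an unadjusted p below 0.05 there were 18, 9 in each direction. Strain, labelled host and chip cannot be told apart from the condition here. With array quality weights 5 members passed, beside 3.71% of all genes. With scaling to a common median 37 passed, all lower without competition, beside 22% of all genes, and the median of all genes was then -0.20. Leaving out array 6 of old cells with competition gave 2 (all genes 2.17%), the zinc transporter Slc39a8 (-0.68 ± 0.16, adjusted p = 0.0233) and Slc3a2 (-0.90 ± 0.19, adjusted p = 0.0108); leaving out array 4 of old cells without competition also gave 2 (all genes 1.17%), and array 8 gave 1 (all genes 0.966%). Slc3a2, the CD98 heavy chain, ranged from 4.75 to 6.11 with competition (median 5.70, the lowest on array 6) and from 4.57 to 5.51 without (median 4.87). Its difference over all arrays was -0.72 ± 0.20 (adjusted p = 0.0873). Young arrays lay between 4.92 and 5.84, TN2 arrays at 4.84 and 4.11 and TN3 arrays at 4.90 and 4.21.

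The stage controls gave the difference between TN3 and TN2 cells on this platform. One carrier passed, Slc25a34, a mitochondrial carrier of unsettled substrate, which stood at 5.90 and 4.99 in TN2 and 4.33 and 4.64 in TN3. Its fall of 0.96 ± 0.23 (adjusted p = 0.033) was lost without TN2 array 1 (-0.51, adjusted p = 0.501), TN3 array 1 (adjusted p = 0.237) or TN3 array 2 (adjusted p = 0.0612). It was also lost with scaling to a common median (adjusted p = 0.0926), the mean of all probes (-0.51, adjusted p = 0.0818) and array weights (adjusted p = 0.132). The count of 1 member (0.395%) compares with 1.17% of all genes, of which 0.785% were lower and 0.38% higher, and 32 members had an unadjusted p below 0.05. With 2 arrays in each group the values of 105 members did not overlap (41.5%), beside 37.3% of all genes. The count was 0 without TN3 array 2 (all genes 0.933%) and 4, all higher, without TN3 array 1 (all genes 0.85%). It was 6, all lower, without TN2 array 2 (all genes 1.24%), so it rested on single arrays.

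Of the 6 carriers lower in both old groups, Slc8a1 (-1.03 ± 0.35, adjusted p = 0.209), Slc25a12 (-1.50 ± 0.51, adjusted p = 0.207) and Slc48a1 (-1.51 ± 0.41, adjusted p = 0.0776) had negative TN3 minus TN2 differences that did not pass. Slc9a2 did not pass either (adjusted p = 0.365), and no exact difference is given because its probe was detected on neither TN3 array, while Slc14a1 (0.36 ± 0.30, adjusted p = 0.742) and Slc66a2 (0.11 ± 0.39, adjusted p = 0.97) lay slightly to the other side, also without passing. The sodium and proton exchanger Slc9a7 of the trans-Golgi network was at 5.24 and 5.52 in TN2 and 4.41 and 4.63 in TN3 (-0.86 ± 0.23, adjusted p = 0.0703). It passed the F-test across the groups (adjusted p = 0.00111). Slc41a3 (-1.48 ± 0.46, adjusted p = 0.141) and Slc16a5 (1.56 ± 0.46, adjusted p = 0.11) were not overlapping between the stages either, with Slc41a3 at 8.35 and 7.98 against 6.25 and 7.13 and Slc16a5 at 5.00 and 5.36 against 6.75 and 6.73.

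Old cells were also set against TN3 controls, and both of these comparisons share the same 2 TN3 arrays. With competition, the adenine nucleotide translocases Slc25a4 and Slc25a5 and the zinc transporter Slc39a8 were higher and Slc14a1 and Slc38a11 lower. These 5 members (1.98%) compare with 3.78% of all genes, 2.3% higher and 1.47% lower, and 33 had an unadjusted p below 0.05. Without competition Slc25a4 was higher and Slc14a1 and Slc38a11 were lower, 3 members (1.19%) beside 2.36% of all genes (1.11% higher, 1.24% lower), with 23 at an unadjusted p below 0.05. The groups did not overlap for 33 members (13%, all genes 15%) with competition and for 19 (7.51%, all genes 10.3%) without. Both counts rose, to 10 and 6 (all genes 3.52% and 2.41%), when TN3 array 1 was left out. They dropped to 2 each (0.612% and 0.805%) when TN3 array 2 was left out. The second also dropped to 2 without array 1, 2, 4, 5, 6 or 8 of the old cells (all genes 1.83% to 2.3%). When array 6 of the old cells was left out, the first count was 9 (6 higher, all genes 7.67%). All 5 members above were among the 9, with Slc25a4 at 1.11 ± 0.21 (adjusted p = 0.0021), Slc25a5 at 0.89 ± 0.19 (adjusted p = 0.00467) and Slc39a8 at 1.56 ± 0.24 (adjusted p = 0.000449). Added were Slc3a2 (1.25 ± 0.28, adjusted p = 0.00739), the acetyl-CoA transporter Slc33a1 (adjusted p = 0.0435) and the zinc transporters Slc39a10 (adjusted p = 0.0498) and Slc39a5 (adjusted p = 0.0485). Slc33a1 was detected on neither TN3 array, and over all 6 arrays of the old cells it was at least 1.25-fold higher (adjusted p = 0.106). Slc39a5 was lower, but its probe was detected on none of these old arrays and only on TN3 array 2, at 5.46. With scaling to a common median the first count was 32, of which 28 were higher, beside 19.2% of all genes, with the median of all genes at 0.23.

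Slc25a4, which exchanges ADP for ATP across the inner mitochondrial membrane, read 7.04 and 6.42 in TN3 and 6.87 and 6.29 in TN2. It ranged from 7.34 to 8.07 in old cells with competition (median 7.82), from 7.40 to 7.78 without (median 7.56) and from 6.79 to 7.68 in young cells (median 7.31). Both old groups lay above both TN3 arrays. The differences from TN3 were 1.03 ± 0.22 (adjusted p = 0.0103) and 0.86 ± 0.21 (adjusted p = 0.0301), and without TN3 array 2 they did not pass (adjusted p = 0.304 and 0.505; the second difference was then 0.54). The second call was also lost with chip as a fixed block (0.68, adjusted p = 0.244), array weights (adjusted p = 0.0926), the mean of all probes (0.37, adjusted p = 0.201) and scaling to a common median (adjusted p = 0.0987). Within chip 5, which holds 1 TN3 array and 3 arrays of old cells without competition, the difference was 0.67, with no test.

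The paralogue Slc25a5 was at 9.09 and 8.21 in TN3, at 8.87 and 8.23 in TN2, and at 8.83 to 9.70 with competition (median 9.48), 9.08 to 9.58 without (median 9.29) and 9.03 to 9.35 in young cells (median 9.23). The 2 TN3 arrays lay far apart, and so did the TN2 arrays: array 1 of each stage, on chip 5, was above array 2, on chip 3, as it also was for Slc25a4, Slc39a8 and Slc3a2. The part of the chip was not tested. Its difference with competition was 0.77 ± 0.21 (adjusted p = 0.0413), 1.21 without TN3 array 1 (adjusted p = 0.00526) and 0.33 without TN3 array 2 (adjusted p = 0.737). Leaving out any of arrays 1 to 5 of the old cells also ended the call (adjusted p 0.059 to 0.0785), and without competition the difference was 0.68 ± 0.20 (adjusted p = 0.0746).

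Slc39a8, a zinc importer, was at 4.82 and 4.15 in TN3, the second not detected, and at 5.03 and 4.23 in TN2. It ranged from 4.89 to 6.22 with competition (median 6.09, the lowest on array 6), from 4.99 to 5.95 without (median 5.37) and from 5.69 to 6.35 in young cells (median 5.82). All 21 arrays of these 3 groups lay above both TN3 arrays. The difference with competition was 1.37 ± 0.29 (adjusted p = 0.0104; 0.282 without TN3 array 2), and without competition 0.88 ± 0.28 (adjusted p = 0.0952).

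Slc14a1 fell below TN3 by 1.28 ± 0.24 (adjusted p = 0.00581) with competition and by 1.47 ± 0.23 (adjusted p = 0.00135) without, so that the old cells lay below both TN2 and TN3 controls and young cells for this probe. Its other 2 probes gave 0.05 and -0.08, and 0.04 and -0.02, in these comparisons, and with the mean of its probes the first call was lost (-0.44, adjusted p = 0.0596). Without TN3 array 1 the adjusted p was 0.11 and 0.0502. Slc38a11, of an amino acid transporter family, was detected on 4 of 25 arrays, and its fall of 0.70 ± 0.19 (adjusted p = 0.0388) and 0.68 ± 0.18 (adjusted p = 0.0442) came from TN3 array 2, at 5.47 against 4.33 on TN3 array 1. Without that array the differences were -0.13 and -0.12 (adjusted p = 0.894 in both), and without TN3 array 1 they were -1.27 (adjusted p = 9.59e-05) and -1.25 (adjusted p = 0.000142). The calls were also lost without array 1, 2 or 3 of old cells with competition (adjusted p 0.0576 to 0.0684) and, in the other comparison, without any array of old cells without competition except array 3 (adjusted p 0.0524 to 0.0622). Array weights ended both calls (adjusted p = 0.054 and 0.0907). The call without competition was also lost with chip as a fixed block (-0.40, adjusted p = 0.47), scaling to a common median (adjusted p = 0.176), no background correction (-0.23, adjusted p = 0.0699) and the deposited values (-0.23, adjusted p = 0.062).

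**Figure D5:**
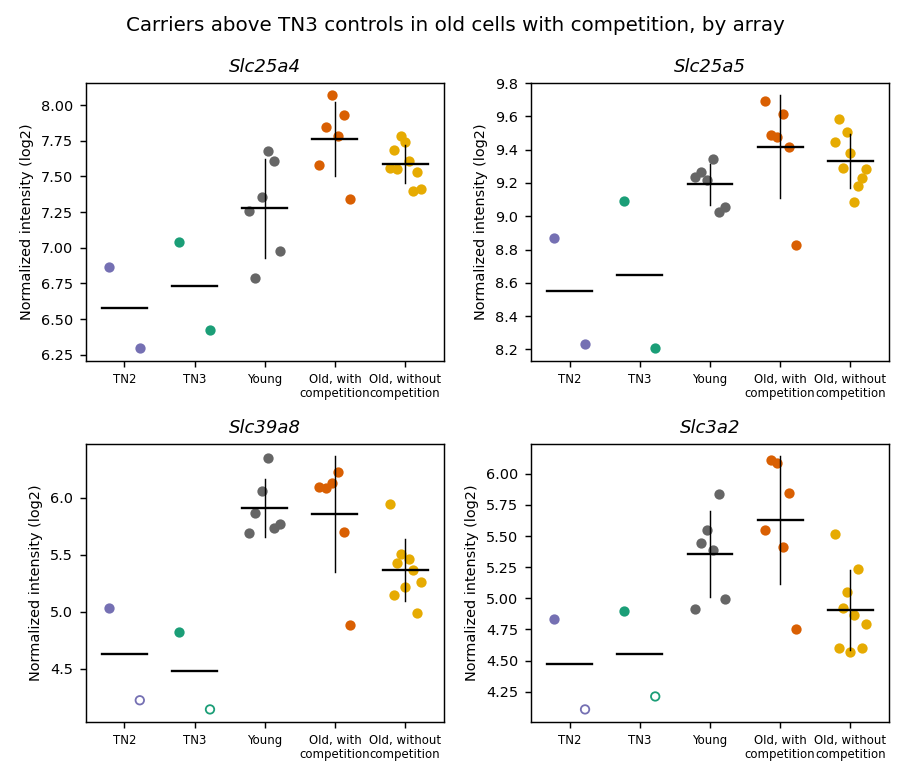
Normalized log2 intensity (vertical axis) of Slc25a4, Slc25a5, Slc39a8 and Slc3a2, with 1 point per array (filled where detected, open where not), group means as bars and SD as lines for groups of more than 2 arrays. The 2 TN3 arrays lie far apart for each of the 4 genes, and array 6 is the lowest of the old cells with competition in all 4.

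Among amino acid transporters known from lymphocytes, none passed against young cells. The sodium-coupled glutamine carriers Slc38a1 and Slc38a2 had medians of 7.01 and 9.01 in young cells; Slc38a1 differed by -0.03 ± 0.16 with competition and 0.08 ± 0.14 without, and Slc38a2 by -0.13 ± 0.18 and -0.49 ± 0.16 (adjusted p = 0.904 and 0.0619). The glutamine and neutral amino acid exchanger Slc1a5 was near the floor, with medians of 4.66, 4.57 and 4.61 in young cells and the old groups with and without competition. The arginine and lysine carrier Slc7a1 (-0.04 ± 0.16 and 0.18 ± 0.15), the exchanger Slc7a6 (0.10 ± 0.24 and 0.02 ± 0.22) and the cystine carrier Slc7a11 (0.23 ± 0.12 and 0.01 ± 0.11) did not pass either. The taurine transporter Slc6a6, at 8.29 to 9.04 in young cells, differed by 0.22 ± 0.14 and 0.01 ± 0.13. Slc7a5, the light chain partner of Slc3a2, was not analysed here. Of 9 measured genes of the amino acid response, a programme that raises amino acid uptake and synthesis under shortage, 0 passed in all 6 comparisons.

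Of the lactate and pyruvate carriers, Slc16a1 was detected on 1 of 6 young arrays, 6 of 6 arrays with competition and 7 of 9 without. It ranged from 4.09 to 4.44, from 4.38 to 5.70 and from 4.15 to 5.82, and its differences of 0.56 ± 0.24 (adjusted p = 0.326) and 0.63 ± 0.22 (adjusted p = 0.0767) did not pass. Slc16a3 differed by 0.03 ± 0.14 and 0.09 ± 0.13. Of the accessory proteins, Emb, a chaperone of monocarboxylate carriers, was lower in old cells without competition than in young cells (-0.78 ± 0.17, adjusted p = 0.00432) and stood at -0.18 ± 0.19 with competition (adjusted p = 0.844). It belongs to a list of 13 partners and drivers of transport, 10 of them measured. Of these, 1 was lower with competition, Atp1b3, a subunit of the sodium pump (-0.43 ± 0.10, adjusted p = 0.0162), and 3 were lower without, Atp1b3 (-0.52 ± 0.09, adjusted p = 0.000777), Emb and the mitochondrial calcium uniporter Mcu (-0.51 ± 0.13, adjusted p = 0.0165). None was higher. The median difference of the 10 was 0.18 in both comparisons. Mcu was also lower without than with competition (-0.60 ± 0.13, adjusted p = 0.0203), and Atp1b3 lower in TN3 than in TN2 (-0.74 ± 0.18, adjusted p = 0.0324); none passed against TN3.

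Of the 28 metal transporters, 0 passed against young cells in either comparison. Slc11a2, which carries ferrous iron out of endosomes, ranged from 6.12 to 7.01 in young cells, from 6.36 to 7.63 with competition and from 6.43 to 7.45 without, with differences of 0.54 ± 0.23 (adjusted p = 0.322) and 0.27 ± 0.21 (adjusted p = 0.519) and an F-test adjusted p of 0.0511. Its paralogue Slc11a1 of phagocyte endosomes differed by 0.20 ± 0.16 and 0.11 ± 0.15, and the zinc exporter Slc30a1, detected on 9 of 25 arrays, by 0.08 ± 0.13 and 0.14 ± 0.12. The zinc importer Slc39a6, at 9.47 to 9.93 in young cells, stood within 0.2 of them in both old groups (-0.14 ± 0.11 and -0.19 ± 0.10). Slc39a10 was detected on all young arrays and on neither TN2 nor TN3 array, and passed the F-test (adjusted p = 0.0407) but not the comparisons with TN3. There its level has only a bound, which puts old cells at least 1.39-fold higher with competition (measured means 4.75 and 4.12, adjusted p = 0.109; 0.0498 without array 6) and at least 1.45-fold higher without (means 4.82 and 4.12, adjusted p = 0.0743).

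Among 11 measured genes that store or regulate metals, the ferritin heavy chain Fth1 was lower with competition (-0.45 ± 0.11, adjusted p = 0.0185), 1 of 11. Without competition 2 were lower, Fth1 (-0.40 ± 0.10, adjusted p = 0.0111) and the ferritin light chain Ftl1 (-0.60 ± 0.19, adjusted p = 0.043). Ftl1 was higher in old cells with competition than in TN3 (1.57 ± 0.29, adjusted p = 0.00408), and the remaining 3 comparisons called none of the list. The mitochondrial iron importer Slc25a37 differed from young cells by -0.03 ± 0.17 and -0.23 ± 0.16, and the mitochondrial glycine carrier Slc25a38, which serves haem synthesis, by 0.21 ± 0.30 and 0.69 ± 0.28 (adjusted p = 0.133).

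For the 40 mitochondrial carriers as a class, 1 was lower in each comparison with young cells, Slc25a12, and the class median was 0.08 with and 0.11 without competition, against 0.00 and 0.02 over all genes. The phosphate carrier Slc25a3 ranged from 7.00 to 7.46 in young cells, from 6.49 to 7.96 with competition and from 7.23 to 7.91 without (0.26 ± 0.20 and 0.32 ± 0.18, neither passing). The carnitine carrier Slc25a20 showed -0.46 ± 0.26 and -0.64 ± 0.24 (adjusted p = 0.563 and 0.0982). The equilibrative nucleoside transporter Slc29a1 was tight in young cells, 7.57 to 7.78, and spanned 5.53 to 8.12 with competition, with array 6 lowest, and 7.61 to 8.22 without (-0.33 ± 0.26 and 0.19 ± 0.24). The folate carrier Slc19a1 differed by 0.26 ± 0.26 and 0.32 ± 0.24, the phosphate carrier Slc20a1 by 0.20 ± 0.27 and -0.15 ± 0.25, and the sodium, potassium and chloride cotransporter Slc12a2 by -0.21 ± 0.35 and -0.42 ± 0.32, none passing.

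The remaining members named for their high signal did not pass in any comparison over all arrays. The scaffold protein Slc9a3r1 ranged from 9.59 to 9.86 in young cells, from 9.37 to 9.94 with competition and from 9.60 to 9.98 without (-0.03 ± 0.09 and 0.04 ± 0.09), and Slc35e2 of the nucleotide sugar family differed by 0.00 ± 0.17 and 0.06 ± 0.16. Slc44a2 was at 9.59 to 9.78 in young cells, 9.07 to 10.2 with competition and 8.76 to 9.57 without. Old cells without competition lay below every young array, with a difference of -0.42 ± 0.14 (adjusted p = 0.0607).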

How the data were processed

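Total RNA of 25 samples was hybridised as biotinylated cRNA to bead arrays of Illumina (per the labels). The authors deposited a non-normalized intensity for each of 46237 probes with a detection p-value beside it; no source used here names the test behind these deposited p-values. They also deposited log2 values with equal quartiles on every array, used as an alternative. Groups came from the source labels and chips from the titles.

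Intensities were normalized with neqc of limma 3.58.1 (R 4.3.3), which takes its background estimate from detection p-values, then applies an offset of 16, quantile normalization and log2. The offset understates fold changes of dim genes. Probes detected (p below 0.05) on at least 3 arrays were kept. Names came from the platform annotation, updated through RefSeq (35784 probes had 1 symbol, 10453 none and 0 several; 28620 were matched by gene identifier and 2637 by accession), and the kept probe of highest mean stood for a gene. Of the members, 79 had several kept probes. All 25 arrays entered 1 limma fit with a mean per group and chip as random block (statmod 1.5.0, correlation 0.00457), with eBayes. P-values were two-sided and adjusted by Benjamini and Hochberg over 15533 genes. A gene was called at an adjusted p below 0.05. For a gene not detected in a group, the fold is a bound, set against the lowest detected signal per array or its own signal where higher.

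Members were classed by family number. Named were all members called in a comparison or by the F-test, a list of T cell and blood cell transporters and the 10 members of highest mean; Slc15a2, Slc25a20, Slc33a1, Slc39a5 and the undetected genes were chosen after their values were seen. The members and lists were chosen with earlier results of these data known. Some genes of that list are not reported here. On simulated data with known changes among 15533 genes, the test found 83.6% of 2-fold changes in each comparison of old with young cells, 82.1% between the old groups, 32.8% for TN3 against TN2, and 50.7% and 56.7% for old cells with and without competition against TN3. Each rate rests on 67 genes, with changes added to normalized log2 values under independent normal noise. An outlying array and the understated folds of dim genes were not simulated, so these rates do not hold for dim members. The number of arrays limits the precision. Alternatives covered background correction, scaling, the deposited log2 values, filters, probe choice, array weights, chip and leaving out each array.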

Additional observations from a re-analysis of the deposited data

Results flagged for a closer look

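For the 45 named members, the highest and lowest array of each group of 6 or 9 were compared with the nearest other array by Dixon's gap ratio at its 95% critical value. Of 135 groups tested, 19 had an array far from the others; chance gives about 1 in 20. Of these, 9 lay on array 6 of old cells with competition. That array was low for Slc16a10 (5.98, next 7.38), Slc19a1 (4.17, not detected, next 5.74), Slc25a3 (6.49, next 7.64), Slc25a5 (8.83, next 9.41) and Slc29a1 (5.53, next 7.49). It was high for Slc16a5 (8.43, next 6.68), Slc35e2 (8.51, next 7.79), Slc41a3 (7.38, next 6.88) and Slc44a2 (10.2, next 9.34).

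Other arrays of old cells with competition stood out for Slc25a34 (array 5, 4.76, next 4.47), Slc9a2 (array 1, 4.61, next 4.21) and Slc9a7 (array 3, 4.82, next 4.18). In young cells the far arrays were array 2 for Slc20a1 (5.37, next 5.86), array 5 for Slc27a1 (4.57, next 5.41), array 4 for Slc30a1 (4.6, next 4.21) and array 3 for Slc66a2 (7.06, next 5.74). In old cells without competition they were array 8 for Slc14a1 (5.2, next 4.66), array 4 for Slc25a38 (7.73, next 8.36) and array 3 for Slc38a11 (4.61, next 4.33).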

How the results depend on the processing

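Over the 26 called values of single members and their 541 alternatives, 437 kept direction and call, 104 kept the direction but missed the threshold and 0 reversed. The 26 values had been picked for passing on these same arrays, which the alternatives reuse. These totals therefore do not tell how the calls would hold in other samples. Single values varied: against young cells without competition, Slc8a1 kept its call in all 23 alternatives. Slc38a11 without competition against TN3 lost it in 14 of 19. With the share of all genes in parentheses, scaling to a common median gave 51 members by the F-test (32%), 42 for old cells without competition against young cells (25.4%), 37 without against with competition (22%), 0 for TN3 against TN2 (0.541%), and 32 (19.2%) and 1 (0.425%) for old cells with and without competition against TN3. Array weights gave 15 (6.93%) and 19 (14%) against young cells with and without competition, 5 between the old groups (3.71%), 0 for TN3 against TN2 (0.528%) and 1 without competition against TN3 (1.17%). For TN3 against TN2, 2 passed without background correction, 2 with the deposited values and 0 with the mean of all probes (1.15% each). Old cells with competition against young cells gave 0 on chip 2 alone (0.277%; 17 members at an unadjusted p below 0.05) and 3 on chip 4 alone (1.51%), where 3 arrays a group remain; none of these 3 was among the 6 called over both chips. The cause of the other shifts was not tested. Leaving out 1 array gave 14 (11.7%) to 25 (12.7%) by the F-test. Against young cells it gave 4 (2.29% to 2.35%) to 8 (4.14%) with competition and 8 (6.6% and 7.96%) to 15 (9.33%) without. Between the old groups it gave 0 (0.695% to 1.19%) to 2 (1.17% and 2.17%), and for TN3 against TN2 0 (0.933%) to 6 (1.24%). Against TN3 it gave 2 (0.612%) to 10 (3.52%) with competition and 2 (0.805% to 2.3%) to 6 (2.41%) without. No paired analysis was possible because the labels give no replicate numbers; with chip as a fixed block, 7 members (3.15%) passed with competition against young cells, 1 (1.33%) for TN3 against TN2 and 2 (0.657%) without competition against TN3, where the calls of Slc25a4 and Slc38a11 were lost. Signals near background limit 103 of the 253 members, which were detected on fewer than 13 arrays.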
